A study of Rattus norvegicus with 12 samples.

Results

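Slc6a6, Cdo1 and Csad encode the taurine transporter of the cell membrane and the enzymes at the start of taurine synthesis, and their RNA was followed in muscle of the hind leg from newborn male Wistar rats. They were chosen by gene symbol in the platform annotation, as 3 of 11053 genes with a symbol among the 18957 detected probe sets. A probe set is a group of array probes summarised to a single value, and each of the 3 genes had 1. Controls were offspring of dams on a control diet, and the low protein group had dams on a low protein diet from day 1 of gestation. In the low protein plus taurine group the dams ate that low protein food and had 2% w/v taurine in their drinking water. Each of the 12 arrays, 4 in every group, held RNA pooled from 3 male newborns of 1 dam, which makes the dam the replicate and leaves differences between littermates unmeasured. Values are log2 expression levels, on which a difference of 1 is a doubling, and they are set against each other only within a gene.

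Taurine is a sulphur-containing amino acid derivative that reaches high concentrations in skeletal muscle, where it acts as an osmolyte and takes part in calcium handling and mitochondrial translation. Muscle makes little of it and takes up most of its supply from blood through Slc6a6, a sodium- and chloride-dependent carrier. Cdo1, cysteine dioxygenase, oxidises cysteine to cysteine sulfinate, and Csad, cysteine sulfinate decarboxylase, turns that product into hypotaurine, which is then oxidised to taurine. In rodents liver and adipose tissue are strong sites of Cdo1 expression, and the fetus depends largely on taurine from the mother.

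The Slc6a6 promoter is shown because Slc6a6 was the member whose RNA differed between diets. Its RefSeq promoter window (build GRCr8) lies on the plus strand. The first stretch, chr4:125752252-125752339, ends just before the outermost RefSeq start of the gene. It has 3 matches to the GC box GGGCGG on the reverse strand in capitals.
Slc6a6 upstream: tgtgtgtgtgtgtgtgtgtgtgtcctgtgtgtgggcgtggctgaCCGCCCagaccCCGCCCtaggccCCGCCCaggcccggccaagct
The next stretch, chr4:125752340-125752369, has in capitals a reverse-strand match to the consensus of the tonicity-responsive enhancer (TonE), the element bound by the transcription factor Nfat5 when cells lose water.
Slc6a6 TonE match: gGTATTTTTCCAcccagcaggatgggtgat
The last stretch, chr4:125752411-125752440, has a match to TATAAA in capitals.
Slc6a6 TATA match: ggagaagccgctTATAAAttaccgcttcct
The TonE and TATA matches lie past the outermost RefSeq start, inside the annotated gene, but before the start from which the window was drawn. Both strands of the 250 bases before each RefSeq start were searched in 33465 windows. The TonE consensus was found in 5.17% of them, its core TGGAAA, which every consensus match contains, in 19.7%, TATAAA in 12.9% and GGGCGG in 30.5%. The antioxidant response element TGACNNNGC, found in 10.1% of windows, had 1 match in the Slc6a6 window. The E box CACGTG (5.59% of windows), the cyclic AMP response core TGACG (18.2%) and the amino acid response element TGATGCAA (0.693%) had 0 matches there. The Csad window had 1 match to GGGCGG and 0 to the other motifs. These matches describe letters in the windows and were not tested for binding.

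Before the members are compared, the arrays need a description. The 9 detected skeletal muscle markers of 10 listed, which include Acta1, Ckm and Ttn, had mean levels between 12.63 and 12.92 on all 12 arrays. The mean of 13 hepatocyte markers of 21 listed was 6.53 and 6.89 in controls 1 and 2, and 10.89 and 11.78 in controls 3 and 4. In the low protein group it ranged from 6.77 to 8.26, and with taurine from 6.71 to 7.47. The mean of 8 adipocyte markers of 12 listed ranged from 8.26 to 8.93 in controls, from 8.27 to 9.70 with low protein and from 7.77 to 8.51 with taurine, and was highest in low protein 1. The mean of 5 erythroid markers of 6 listed reached 9.14 in controls, 7.39 with low protein and 8.06 with taurine, from lows of 7.20, 7.24 and 7.39. Over all groups that of 6 cartilage markers ran from 6.91 to 7.58 and that of 6 pancreas markers of 7 listed from 6.68 to 6.90. Taurine arrays 1 and 2 differed from 3 and 4 in 2 of these means. Their erythroid means were 7.79 and 8.06 against 7.39 and 7.51. Their skeletal muscle means were 12.92 and 12.89 against 12.78 and 12.76. Each array is bulk tissue, so fewer cells of a type and less RNA per cell cannot be told apart. Over all probe sets the median difference was 0.07 in low protein against control, 0.06 in low protein plus taurine against control and 0.00 between both low protein groups.

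Slc6a6 (probe set 10857314) was higher in muscle of low protein offspring than in controls, and in offspring of dams given taurine it was at the control level within error. Control arrays 1 to 4 were at 8.18, 8.09, 8.23 and 8.37. Low protein arrays 1 to 4 were at 8.55, 8.62, 8.78 and 8.68. Arrays 1 to 4 of low protein plus taurine were at 8.15, 8.24, 8.39 and 8.35. All 4 low protein arrays lay above all 8 other arrays, while the controls and the taurine group covered nearly the same range. Taken singly, low protein arrays were above all controls in 22.2% of probe sets and above all taurine arrays in 3.51%. The share with both at once was not computed. The means were 8.22 ± 0.12 in controls, 8.66 ± 0.10 with low protein and 8.28 ± 0.11 with added taurine (SD, n = 4 each), so the spread between dams was similar in the 3 groups.

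In low protein against control Slc6a6 rose by a log2 difference of 0.44 (SE 0.08, 95% interval 0.28 to 0.60, limma adjusted p = 0.00487), which is 1.36 times the control level (95% interval 1.21 to 1.52). The background was broad: 33.7% of all probe sets passed an adjusted p of 0.05 in this comparison, 21.8% as higher and 11.9% as lower. The count and its direction moved with scaling, from 6390 probe sets (64.6% of them higher) as deposited to 5122 (29.4%) after median centring and 2564 (36.9%) after cyclic loess. As deposited, in 22.2% every low protein array was above every control. Within that background 3.82% of probe sets differed by more than Slc6a6 and 1.36% had a smaller p. The rise passed in 12 of 12 fits that each left out 1 array, with differences from 0.40 to 0.49 and adjusted p between 0.00269 and 0.0168. Without controls 3 and 4, whose hepatocyte markers were high, it was 0.52 (SE 0.09, limma adjusted p = 0.00537). After cyclic loess normalization it was 0.28 (SE 0.08, limma adjusted p = 0.0375).

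In low protein plus taurine against control the Slc6a6 difference was 0.06 (SE 0.08, limma adjusted p = 0.564). Its 95% interval of -0.10 to 0.23 allows levels from 0.933 to 1.17 times control and does not reach the low protein estimate of 0.44. After quantile normalization and cyclic loess the sign turned, to -0.03 and -0.07. Without controls 3 and 4 the difference was larger, at 0.15 (SE 0.09, limma adjusted p = 0.308). It was 0.15 (limma adjusted p = 0.270) without taurine arrays 1 and 2. With the hepatocyte marker mean as a covariate it was 0.13 (limma adjusted p = 0.339). In this comparison 13.8% of probe sets passed, 10.2% as higher and 3.6% as lower.

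In low protein plus taurine against low protein Slc6a6 differed by -0.38 (SE 0.08, 95% interval -0.54 to -0.21), or 0.770 times the low protein level (95% interval 0.687 to 0.863). All 4 taurine arrays were below all 4 low protein arrays, as were 3.51% of probe sets in this direction. After adjustment over all features the difference did not pass (limma adjusted p = 0.347), and 0% of probe sets did in this fit, against 10.8% with an unadjusted p below 0.05. By unadjusted limma p, Slc6a6 was at rank 2 of 18957 probe sets, and 1.42% of them differed by more. The exact permutation test, two-sided, gave p = 0.0286, the smallest value that 4 against 4 arrays allow, and it is not adjusted for the other genes. The same 4 low protein arrays enter both comparisons in which Slc6a6 stood apart, so those values are not independent of each other.

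**Figure D1:**
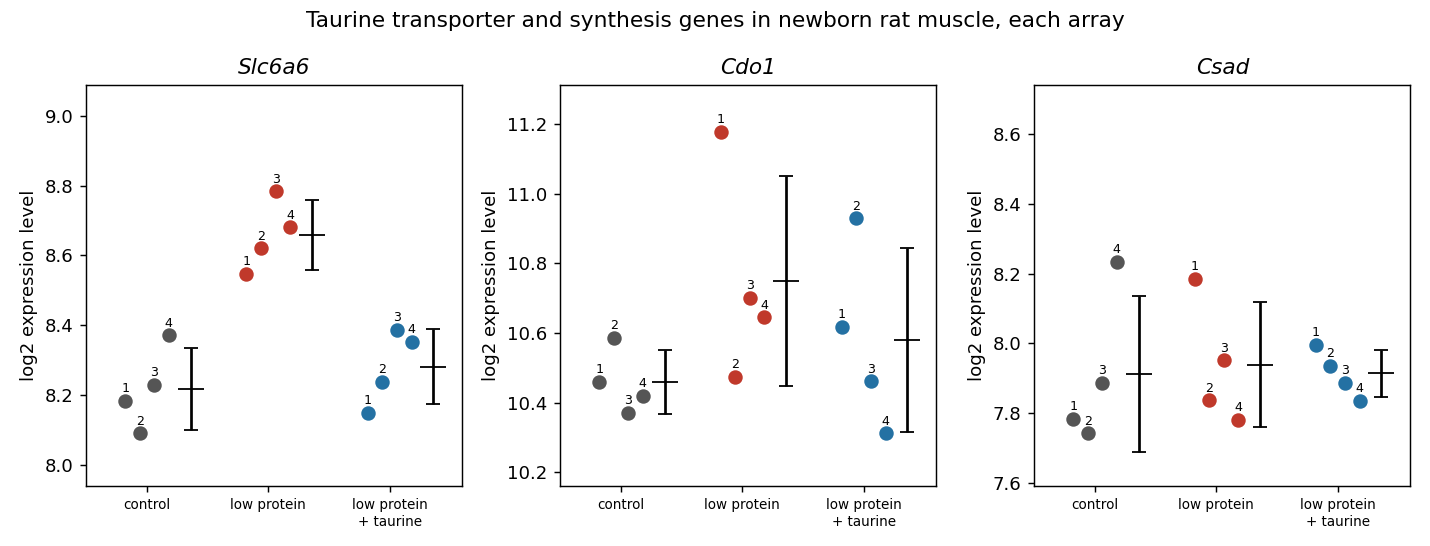
Log2 expression level of Slc6a6, Cdo1 and Csad on each of the 12 arrays, by maternal diet. Points are arrays numbered by replicate, and bars beside them give the mean ± SD (n = 4), with a vertical span of equal size in each panel. The low protein arrays of Slc6a6, from 8.55 to 8.78, lie above all arrays of the other groups, whereas the groups overlap for Cdo1 and Csad. Of all probe sets, 22.2% had the low protein arrays above all controls, and 3.51% had them above all taurine arrays.

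The authors' deposited table lists Slc6a6 among 895 known genes changed by the low protein diet and marks it as 1 of 88 genes with a full rescue by taurine, a label the deposited descriptions give where the p of taurine against control was above 0.05. The linear means in the authors' deposited table were 298 for control, 404 for low protein and 311 for low protein plus taurine. Ratios to control in the authors' deposited table were 1.36 and 1.04. The p-values in the authors' deposited table were 1.08e-08 for low protein against control, 0.427 for taurine against control and 3.39e-07 for taurine against low protein. For low protein against control, 716 of 716 p-values of the authors' deposited table above 1e-12 lay within 1% of those that a normal reference gives for an equal-variance t statistic on the same values. With the reference distribution for so few arrays, the methods' t-test gave Slc6a6 unadjusted p-values of 0.00124, 0.458 and 0.00222 in that order. After Benjamini-Hochberg adjustment over all probe sets, the methods' t-test gave 0.0222 for the first and 0.411 for the third. Cdo1 and Csad are absent from both the 895 genes and the 1318 probe sets that the authors chose with SAM in the authors' deposited tables.

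Cdo1 (probe set 10804396), which oxidises cysteine to cysteine sulfinate, varied widely between dams in both low protein groups, and no diet difference passed. Controls 1 to 4 were at 10.46, 10.59, 10.37 and 10.42. Low protein arrays 1 to 4 were at 11.18, 10.47, 10.70 and 10.64. With added taurine, arrays 1 to 4 were at 10.62, 10.93, 10.46 and 10.31. Low protein 1 was the highest array and low protein plus taurine 4 the lowest, and the arrays of the 3 groups overlapped. Group means were 10.46 ± 0.09 in controls, 10.75 ± 0.30 with low protein and 10.58 ± 0.26 with taurine (SD, n = 4 each).

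The Cdo1 difference was 0.29 (SE 0.15, 95% interval -0.03 to 0.61, limma adjusted p = 0.135) in low protein against control, and 15 of 16 pairs of a low protein and a control array had the higher value in the low protein array. It was 0.12 (SE 0.15, 95% interval -0.20 to 0.44, limma adjusted p = 0.570) in low protein plus taurine against control. In low protein plus taurine against low protein it was -0.17 (SE 0.15, 95% interval -0.49 to 0.15, limma adjusted p = 0.677). Each of these intervals includes the Slc6a6 value of the same comparison. Without low protein 1 the first difference was 0.15 (limma adjusted p = 0.360) and the last was -0.03 (limma adjusted p = 0.948). Without low protein plus taurine 2 the second was 0.00 (limma adjusted p = 0.984).

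The Cdo1 level moved with the adipocyte markers. Low protein 1 had the highest adipocyte mean, 9.70, together with the highest Cdo1 level, and low protein plus taurine 4 had the lowest adipocyte mean, 7.77, together with the lowest Cdo1 level. Low protein 1 was the highest array for 8 of 8 single markers, and low protein plus taurine 4 the lowest for 5 of 8, with Lpl, Cfd and Pnpla2 the exceptions. Adiponectin (Adipoq) was at 10.37 in low protein 1 and at 6.15 in low protein plus taurine 4, and the lipid droplet gene Plin1 at 9.37 and 6.62. Over the 12 arrays Pearson's r of Cdo1 with the adipocyte mean was 0.78 (permutation p = 0.00918, adjusted over 3 relations 0.0275) and Spearman's rho was 0.69 (permutation p = 0.0177, adjusted 0.0531). Without these 2 arrays, the farthest from the median of the adipocyte mean, r was 0.33 over 10 arrays. The relation across all groups thus leaned on them. For deviations from group means over all 12 arrays r was 0.87 for Cdo1, -0.53 for Slc6a6 and 0.30 for Csad. How far the relation inside the groups leaned on the same 2 arrays was not computed. Over all arrays Slc6a6 had r = 0.24 (permutation p = 0.460, adjusted 0.460) and rho = 0.11 (permutation p = 0.736, adjusted 0.993) with the same markers, and Csad r = 0.28 (permutation p = 0.373, adjusted 0.460) and rho = -0.01 (permutation p = 0.993, adjusted 0.993). Without those 2 arrays r was 0.12 for Slc6a6 and -0.42 for Csad.

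With the adipocyte mean as a covariate, the Cdo1 difference was 0.12 (SE 0.09, limma adjusted p = 0.288) in low protein against control, 0.28 (SE 0.09, limma adjusted p = 0.0694) in low protein plus taurine against control and 0.15 (SE 0.10, limma adjusted p = 0.478) in low protein plus taurine against low protein, the last with its sign turned. Slc6a6 kept a difference of 0.49 (SE 0.07, limma adjusted p = 0.00462) in low protein against control in that fit. Controls 3 and 4, the arrays with the highest hepatocyte means, had the lowest Cdo1 levels of the controls. Low protein 2 likewise had the highest hepatocyte mean (8.26) and the lowest Cdo1 level (10.47) of its group. By contrast, low protein plus taurine 2 was the highest of its group in both. With the hepatocyte mean as a covariate the Cdo1 difference was 0.24 (SE 0.17, limma adjusted p = 0.291) in low protein against control.

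**Figure D2:**
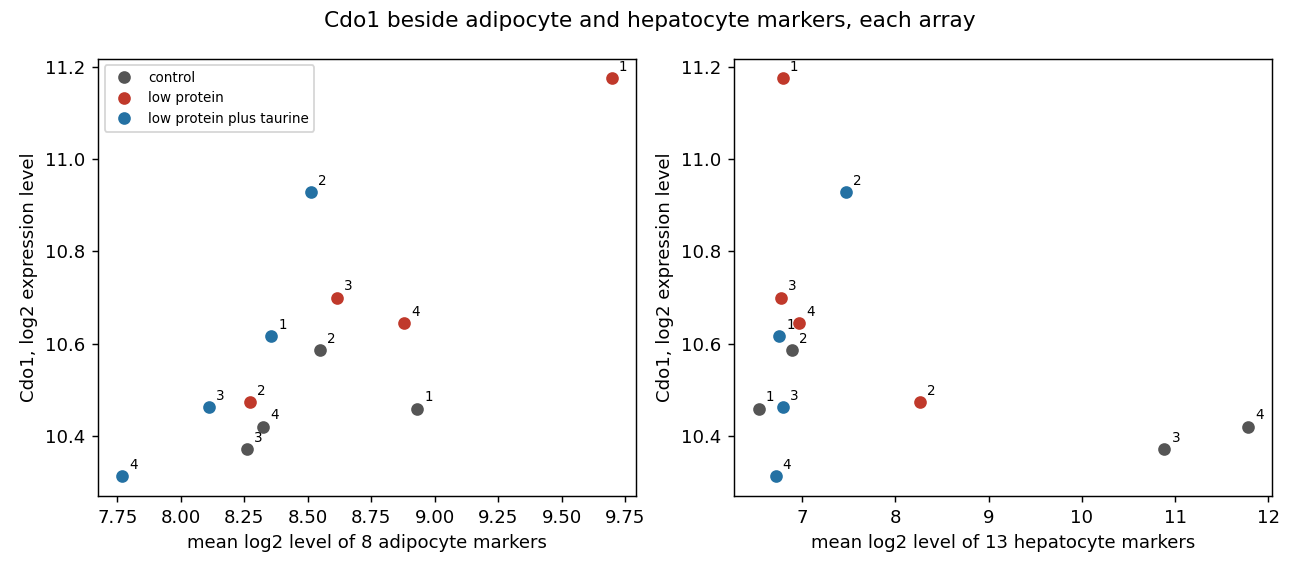
Cdo1 level on each of the 12 arrays against the mean log2 level of 8 adipocyte markers (left) and of 13 hepatocyte markers (right), with points numbered by replicate and coloured by maternal diet. Low protein 1 is highest for both Cdo1 (11.18) and adipocyte markers (9.70), and controls 3 and 4 have high hepatocyte means (10.89 and 11.78) with Cdo1 at 10.37 and 10.42.

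Csad (probe set 10907542), the decarboxylase of the pathway, had nearly equal means in all groups. Controls 1 to 4 were at 7.78, 7.74, 7.89 and 8.23. The low protein arrays were at 8.19, 7.84, 7.95 and 7.78, and the arrays with taurine at 7.997, 7.93, 7.89 and 7.84, in order of replicate. Control 4, the array with the highest hepatocyte mean, and low protein 1, that with the highest adipocyte mean, were the highest for Csad, and the groups overlapped. Means were 7.91 ± 0.22, 7.94 ± 0.18 and 7.91 ± 0.07 (SD, n = 4 each).

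The Csad difference was 0.03 (SE 0.11, 95% interval -0.21 to 0.26, limma adjusted p = 0.859) in low protein against control and 0.00 (SE 0.11, 95% interval -0.23 to 0.24, limma adjusted p = 0.989) in low protein plus taurine against control. In low protein plus taurine against low protein it was -0.02 (SE 0.11, 95% interval -0.26 to 0.21, limma adjusted p = 0.947). None of these intervals reaches the Slc6a6 rise of 0.44 in size. Without controls 3 and 4 the first was 0.18 (SE 0.10, limma adjusted p = 0.214) and the second 0.15 (SE 0.10, limma adjusted p = 0.361), and with the hepatocyte mean as a covariate they were 0.13 (limma adjusted p = 0.365) and 0.12 (limma adjusted p = 0.486).

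**Figure D3:**
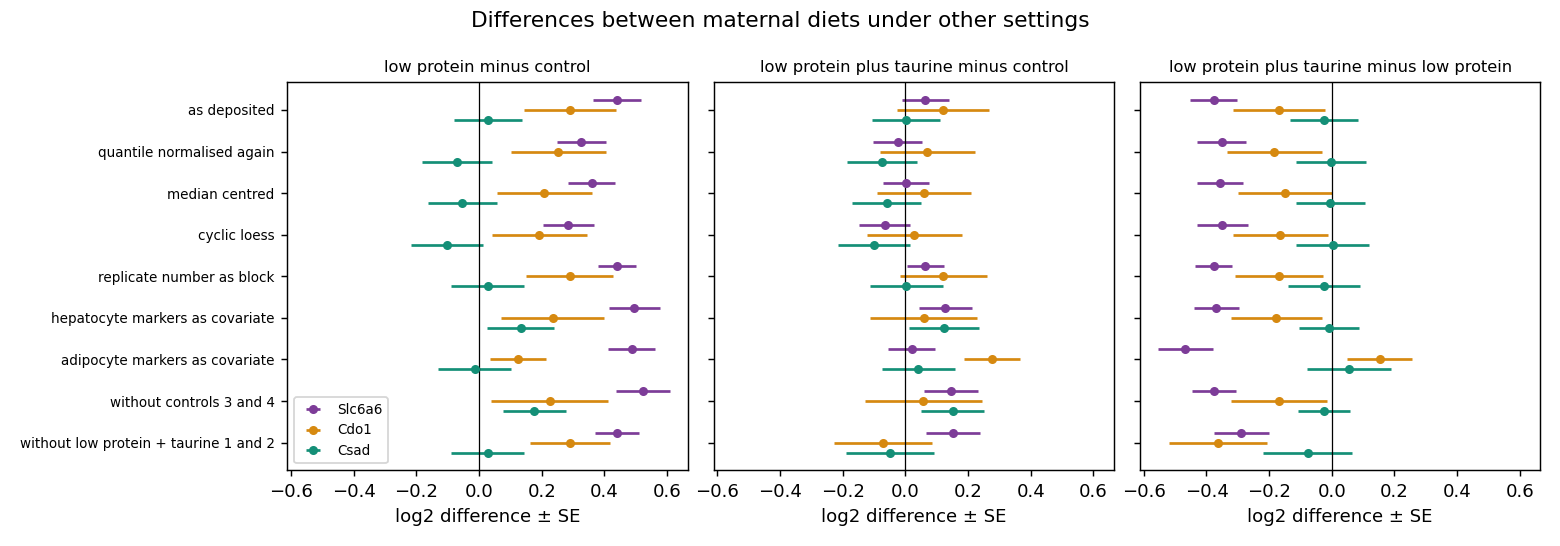
Log2 differences (points) with standard errors (lines) of Slc6a6, Cdo1 and Csad in the 3 comparisons, as deposited and under 8 other settings. Slc6a6 stays between 0.28 and 0.52 in low protein minus control and between -0.47 and -0.29 in low protein plus taurine minus low protein. In low protein plus taurine minus control it lies between -0.07 and 0.15, with its sign turned after quantile normalization and cyclic loess. The sign of Csad turns with the scaling, with the adipocyte covariate and without taurine arrays 1 and 2, depending on the comparison.

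The genes whose levels ran most alike with each member were named by Pearson's r over the 12 arrays. For Slc6a6 they were Tmem268 (r = 0.98), Ubac2 (0.95), the transporter gene Flvcr2 (0.95), Rnf126 (0.94) and Smg5 (0.94). Their low protein minus control differences were 0.35, 0.20, 0.32, 0.26 and 0.25, and their taurine minus low protein differences were -0.29, -0.17, -0.30, -0.22 and -0.20, each smaller than that of Slc6a6. For deviations from the group means r was 0.92 for Tmem268 and between 0.75 and 0.79 for the others. For Cdo1 they were the kinase genes Pim3 (r = 0.94) and Sik2 (0.88), the actin-severing gelsolin gene Gsn (0.87), the protease inhibitor gene Timp4 (0.85) and Rbpms (0.85). For Csad they were the phosphatase gene Pdp2 (r = 0.92), Chp1 (0.91), the fatty acid elongase gene Elovl5 (0.91), the cholesterol exporter gene Abca1 (0.91) and Isoc2b (0.90). Without controls 3 and 4 these 5 had r between 0.85 and 0.89 with Csad. All of these were picked as the highest of many, over arrays that share the diet groups.

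Around the 3 members, 37 other gene symbols were listed, and 26 of them had a named probe set. They covered taurine transport, release, synthesis and use, cysteine supply and other cysteine fates, and the tonicity response. In low protein against control 3 of 26 rose and 1 fell, or 15.4% against the 33.7% called over all probe sets, and their median difference was 0.02 against 0.07. In low protein plus taurine against control 3 of 26 rose and 0 fell, or 11.5% against 13.8%, with a median of 0.04 against 0.06. Between both low protein groups 0 of 26 passed, the smallest limma adjusted p being 0.492, and the median was 0.03 against 0.00. Both comparisons with control share the same control arrays.

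Mto1, which with Gtpbp3 attaches taurine to mitochondrial transfer RNAs, was higher than in controls in both low protein groups. It was at 7.09, 6.98, 6.96 and 7.11 in controls 1 to 4. In low protein 1 to 4 it was at 7.33, 7.42, 7.38 and 7.35, and with taurine at 7.35, 7.17, 7.32 and 7.27. Both low protein groups lay above all controls, as did 22.2% of probe sets with low protein and 14.2% with taurine. Mto1 rose by 0.34 (SE 0.06, limma adjusted p = 0.00457) in low protein against control, a call kept under 24 of 24 alternatives. It rose by 0.24 (SE 0.06, limma adjusted p = 0.0201) in low protein plus taurine against control, with the call lost without control 3, without low protein plus taurine 1 or without both controls 3 and 4, where it was 0.24 (limma adjusted p = 0.0647). That call was also lost with the hepatocyte covariate (limma adjusted p = 0.05002) and by the methods' t-test (adjusted p = 0.0692). The taurine minus low protein difference was -0.09 (SE 0.06, limma adjusted p = 0.555). Gtpbp3 was at 0.15 (limma adjusted p = 0.0922) and 0.03 (0.748) against control. In all, 1 of 4 genes of taurine use rose in each comparison with control, where 21.8% and 10.2% of all probe sets did.

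Among genes of the tonicity response, in which Nfat5 raises the uptake and synthesis of osmolytes including taurine, 1 of 4 rose in each comparison with control, against 21.8% and 10.2% of all probe sets. Slc5a3, the myo-inositol transporter gene, was at 6.38, 6.09, 6.11 and 6.20 in controls and at 6.58, 6.76, 6.50 and 6.42 with low protein. These 2 groups did not overlap, as in 22.2% of probe sets that were higher. With taurine Slc5a3 was at 6.52, 6.44, 6.24 and 6.45, overlapping both. Slc5a3 rose by 0.37 (SE 0.09, limma adjusted p = 0.0108) with low protein and was 0.22 above control with taurine (limma adjusted p = 0.105). Without controls 3 and 4 the first value was 0.33 and no longer passed (limma adjusted p = 0.0583). The aldose reductase gene Akr1b1 (probe set 10861736), which makes sorbitol, rose by 0.29 (SE 0.08, limma adjusted p = 0.0299) with low protein plus taurine, against 0.14 with low protein (0.166). All its taurine arrays were above the controls, as in 14.2% of probe sets. The Akr1b1 call was lost without controls 3 and 4 (0.18, limma adjusted p = 0.179) and after cyclic loess (0.20, 0.0996). Leaving out any 1 of control 3, control 4 and low protein plus taurine 1, 2 and 4 also ended that call, with a highest adjusted p of 0.0770. In all, the Akr1b1 call was lost under 13 of 25 alternatives. Between both low protein groups neither gene passed, at -0.16 for Slc5a3 (limma adjusted p = 0.535) and 0.15 for Akr1b1 (limma adjusted p = 0.492). A further Akr1b1 probe set, 10864893, was at 0.08 (limma adjusted p = 0.536). Nfat5 itself was at 0.14 (limma adjusted p = 0.0946) and 0.18 (0.0701) against control and did not pass. Its low protein arrays all lay above the controls, as in 22.2% of probe sets, while its taurine arrays overlapped them.

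The Lrrc8 genes encode subunits of the volume-regulated anion channel, through which swollen cells release taurine. Lrrc8b rose by 0.27 (SE 0.09, limma adjusted p = 0.0284) with low protein and by 0.28 (SE 0.09, limma adjusted p = 0.0478) with low protein plus taurine, with overlap between the groups in both cases. After cyclic loess neither passed (0.23, limma adjusted p = 0.101, and 0.24, 0.126). The first Lrrc8b call was lost in 5 of 12 fits without 1 array (control 1, 2 or 3, low protein 2 or 4) and the second in 11 of 12, the exception being control 4. In all, the first was lost under 10 and the second under 19 of 24 alternatives. Lrrc8e fell by 0.51 (SE 0.14, limma adjusted p = 0.0191) with low protein, where it was at 6.31, 5.72, 6.12 and 6.41 against 6.98, 6.64, 6.44 and 6.55 in controls. Its groups did not overlap, as in 10.6% of probe sets that were lower. The call was lost after cyclic loess (-0.41, limma adjusted p = 0.0620), after quantile normalization (-0.41, limma adjusted p = 0.0574) and by the methods' t-test (adjusted p = 0.0979). With taurine Lrrc8e was at -0.36 against control (limma adjusted p = 0.0949), again with all arrays below the controls, as in 6.01% of probe sets. Its taurine minus low protein difference was 0.15 (limma adjusted p = 0.707). Lrrc8a, the obligatory subunit, was at 0.03 (limma adjusted p = 0.777) and 0.10 (0.309) against control, and Lrrc8d, the subunit that favours taurine, at 0.03 (0.682) and 0.13 (0.136). The taurine arrays of Lrrc8d all lay above the controls, as in 14.2% of probe sets.

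**Figure D4:**
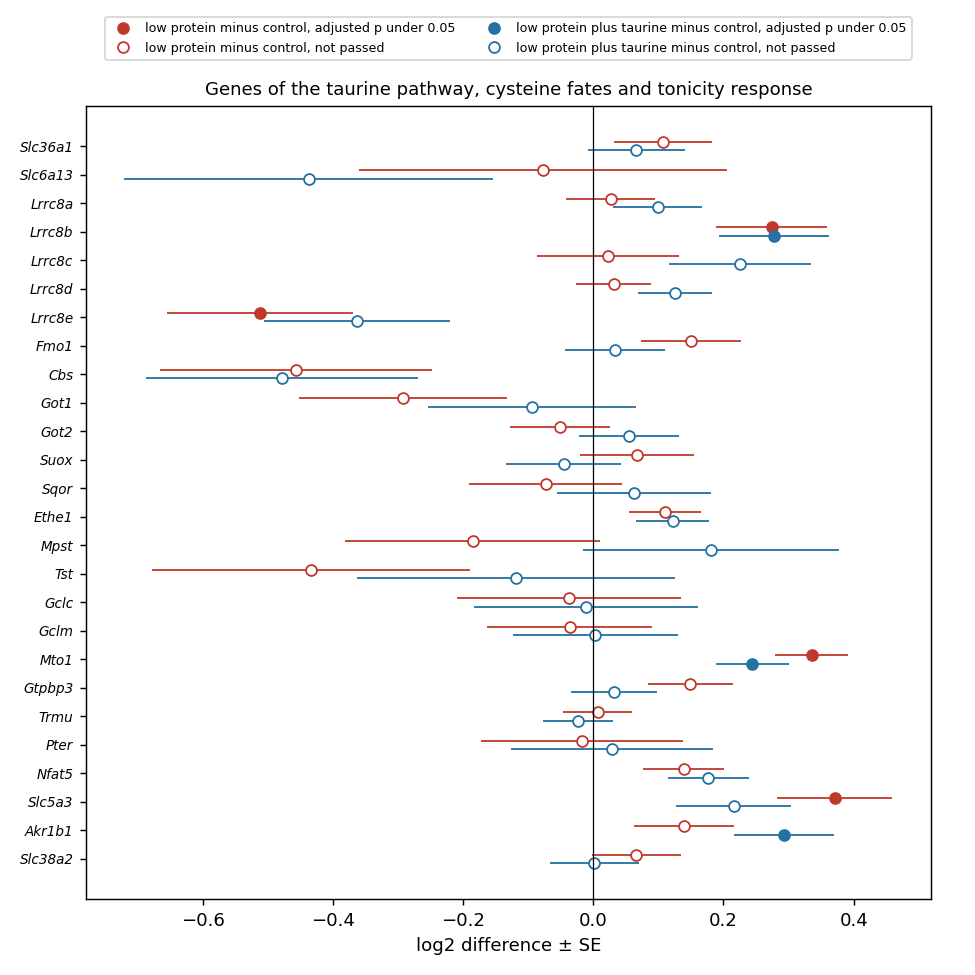
Log2 difference from control (points) with its standard error (lines) for the 26 other listed genes with a probe set, in low protein (red) and low protein plus taurine (blue), with filled points for a limma adjusted p under 0.05. Mto1 (0.34 and 0.24) and Lrrc8b (0.27 and 0.28) are filled in both, and Slc5a3 (0.37), Lrrc8e (-0.51) and Akr1b1 (0.29) in 1 of them.

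The other genes of transport and synthesis did not pass. Slc36a1, a proton-coupled amino acid carrier that also takes taurine, was at 0.11 (limma adjusted p = 0.270) with low protein and 0.07 (0.541) with taurine against control. Slc6a13, a carrier of GABA and taurine, was at 8.28, 8.52, 8.94 and 9.85 in controls 1 to 4, highest in the 2 arrays with high hepatocyte markers. With low protein it ran from 8.73 to 8.92 and with taurine from 7.995 to 8.84, and its differences were -0.08 (limma adjusted p = 0.847) and -0.44 (0.279) against control. Fmo1, a flavin monooxygenase that can oxidise hypotaurine to taurine, was at 0.15 (limma adjusted p = 0.138) and 0.03 (0.774). Of 10 genes of cysteine supply and other cysteine fates, 0 passed in either comparison with control, where 33.7% and 13.8% of all probe sets did. For Tst, Gclc, Gclm, Suox, Sqor and Ethe1, controls 3 and 4 were the highest of the controls, but not for Got1, Got2 and Mpst. The SD of Gclc was 0.47 in controls and 0.10 with low protein, and that of Tst 0.52 and 0.09. The 0 of 10 is therefore read with this spread of the controls. Cbs, which starts cysteine formation from homocysteine, was at 5.92, 6.12, 6.56 and 7.21 in controls and between 5.84 and 6.17 on the other 8 arrays, and again the controls with high hepatocyte markers were the highest. Its difference was -0.46 (limma adjusted p = 0.103) with low protein. Without controls 3 and 4 the low protein minus control difference was -0.03 for Cbs (limma adjusted p = 0.870) and 0.42 for Slc6a13 (limma adjusted p = 0.149), the latter with its sign turned. Got1, a transaminase that can divert cysteine sulfinate from taurine synthesis, was at -0.29 (limma adjusted p = 0.163) and -0.09 (0.695).

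Among 9 relatives of Slc6a6 in the SLC6 carrier family with a probe set, 1 rose in each comparison with control, or 11.1% against 21.8% and 10.2% of all probe sets. This was Slc6a8, the creatine transporter gene, which was at 9.33, 9.35, 9.31 and 9.09 in controls, at 9.45, 9.53, 9.66 and 9.46 with low protein and at 9.49, 9.52, 9.63 and 9.61 with taurine. Both low protein groups lay above all controls, as in 22.2% and 14.2% of probe sets. Slc6a8 rose by 0.26 (SE 0.07, limma adjusted p = 0.0175) and by 0.29 (SE 0.07, limma adjusted p = 0.0227), and unlike Slc6a6 it was not lower with taurine than with low protein, at 0.04 (95% interval -0.12 to 0.19, limma adjusted p = 0.865). The Slc6a8 values were 0.12 (limma adjusted p = 0.218) and 0.17 (0.126) after cyclic loess and 0.19 (0.0907) and 0.22 (0.0980) without controls 3 and 4, so neither call held there. Leaving out low protein 3 ended the first call, and leaving out control 3 or low protein plus taurine 4 the second, with a highest adjusted p of 0.0531 and 0.0566. Both calls were also lost after quantile normalization, after median centring, with the hepatocyte covariate and by the methods' t-test. In all, the first was lost under 7 and the second under 8 of 25 alternatives.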

How the data were processed

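Each RNA pool went on 1 Affymetrix array. RMA was run in R 3.2.2, per the submitters' processing notes; the RMA version and build were not given in the sources used here. Values were deposited as log2 levels per probe set. The authors removed control and undetected probe sets, per the deposited descriptions, leaving 18957 of 29214. The deposited value table held the same values for all 18957. The authors' deposited table of 895 probe sets gives p-values, linear group means (intensity scale) and their ratio, per the file headers.

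All 12 arrays entered 1 limma 3.58.1 fit (R 4.3.3) with 3 group means, eBayes and Benjamini-Hochberg adjustment over 18957 probe sets; tests are two-sided, threshold 0.05, intervals 95%. The fit was tested on simulated data. Permutation tests of correlations used 100000 resamples. The platform annotation gave 11721 probe sets 1 symbol, 141 several and 7095 none. Where a gene had several probe sets, that of highest mean stood for it. Members and lists were chosen with earlier results of these data known. Named genes were the members, list genes that passed, a fixed set of pathway genes and the 5 genes of highest r with each member; of the fixed set, Ado, Gadl1, Cth and Baat have no named probe set here. No coordinates of probe sets are given, as the build is not named. Cdo1 has no entry among the promoter sequences. Of 12 pairs of arrays with the same replicate number, 3 had deviations correlated above 0.1 (range -0.21 to 0.20), so the numbers were not used as pairs. Alternatives were other scalings, a level filter, all 29214 probe sets, marker covariates, arrays left out, the replicate block, other fits and the methods' t-test. The number of arrays limits the precision.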

Additional observations from a re-analysis of the deposited data

Results flagged for a closer look

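In groups of 4 arrays, the highest or lowest value was compared with the spread of the others in 63 sets of values (18 genes and 3 marker means in 3 groups), and 3 stood apart. Chance alone would mark about 1 in 20 such sets. Slc6a8 in control 4 was at 9.09, against 9.31 to 9.35 in the other controls. The hepatocyte marker mean was 8.26 in low protein 2, against 6.77 to 6.97 in the other low protein arrays, and 7.47 in low protein plus taurine 2, against 6.71 to 6.79 in the others of that group. On these 2 arrays Slc6a6 was at 8.62 and 8.24, inside the range of its group. None of the 3 members had an array that stood apart by this measure.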

How the results depend on the processing

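Slc6a6 in low protein against control passed under all alternatives run, and in taurine against low protein it stayed negative under all of them, passing only in the exact permutation test of that gene alone (-0.38, p = 0.0286). Its near-zero difference in taurine against control turned to -0.025 after quantile normalization and -0.066 after cyclic loess. That difference was 0.145 without controls 3 and 4 and 0.152 without taurine arrays 1 and 2. Cdo1 in taurine against control turned to -0.0724 without taurine arrays 1 and 2, and in taurine against low protein to 0.153 with the adipocyte covariate. Csad in low protein against control turned to -0.0712 (quantile), -0.0541 (median centring), -0.103 (cyclic loess) and -0.0142 (adipocyte covariate). In taurine against control Csad turned to -0.0745, -0.0593 and -0.100 under these 3 scalings and to -0.0495 without taurine arrays 1 and 2, and in taurine against low protein to 0.0026 after cyclic loess and 0.0557 with the adipocyte covariate. The cause was not tested.

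Leaving out single arrays gave Slc6a6 0.397 to 0.491, 0.0206 to 0.114 and -0.414 to -0.333 in the 3 comparisons in order, Cdo1 0.147 to 0.381, 0.0044 to 0.210 and -0.285 to -0.0263, and Csad -0.055 to 0.135, -0.0541 to 0.110 and -0.0774 to 0.0575. With the replicate block the Slc6a6 differences stayed 0.44, 0.06 and -0.38 (limma adjusted p of 0.0106, 0.460 and 0.284), and the block changed no call of the members.

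Over all probe sets 6390 passed in low protein against control (64.6% higher). The count was 2982 after quantile normalization (51.1% higher), 2564 after cyclic loess (36.9%), 5122 after median centring (29.4%), 3863 above the median level (86.3%), 3705 without controls 3 and 4, 4079 by the methods' t-test and 3929 to 6621 without 1 array, falling most without control 3 (4211), low protein 2 (4235) or low protein 3 (3929). The methods' t-test gave 6 after Bonferroni correction. In taurine against control 2616 passed (73.9% higher). There it was 1201 after quantile normalization (46.1%), 1137 after cyclic loess (29.3%), 1822 after median centring (32.9%), 1353 with only the groups compared, 1218 with the hepatocyte and 1524 with the adipocyte covariate, 907 without controls 3 and 4, 1013 without taurine arrays 1 and 2, 491 by the methods' t-test and 620 to 2742 without 1 array, with 620, 1717 and 1098 without taurine array 1, 3 or 4, 1580 without control 1 and 748 without control 3. In taurine against low protein 0 passed in limma and by the methods' t-test, and 0 without any 1 array, against 2047 at an unadjusted p below 0.05. There 1 passed with only the groups compared (probe set 10715250, without a symbol) and 2 without controls 3 and 4 (the same and 10812361). Of the 26 other pathway genes, 4 passed in low protein against control, 3 after median centring and 2 after quantile normalization or cyclic loess. In taurine against control 3 passed, and 1 after quantile normalization, median centring or cyclic loess. Without controls 3 and 4 the counts were 5 and 2. Slc5a3 lost its call there in the first comparison, and Mto1 and Akr1b1 in the second. Both counts without these controls therefore include genes not called in the main fit.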
